A study of Mus musculus with 24 samples.

Results

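Sham surgery is the control arm of this stroke study, and the comparison described here is between sham-operated mice at its 2 time points, brain microvessels 7 days against 24 h after the operation. Of the 24 RNA-seq libraries of the series, 12 are from sham-operated mice, with 3 from each hemisphere at each time point. The ipsilateral and contralateral libraries with the same replicate number count here as a single pool of mice, and their mean on the log2 scale gave 6 pools, 3 at 24 h and 3 at 7 days. All mice were male C57BL/6J, aged 10 to 12 weeks. In the sham operation the right carotid vessels were ligated and a filament was advanced under isoflurane as in transient middle cerebral artery occlusion (tMCAO), but it was withdrawn at once, where the tMCAO mice had it in place for 60 min. The mice received buprenorphine in the first days after the operation, with warming, saline and feeding according to their condition, so the 24 h group was collected within the period of analgesia and the 7-day group after it. There is no group without an operation, and neither the hour of collection nor food intake is given in the sources used here. After perfusion with saline, vessels were caught on a mesh from cortex-containing tissue freed of cerebellum, brain stem, olfactory lobes and meninges, and each library held vessels from 3 pooled hemispheres. Libraries judged to be outliers had been taken out before deposit, so the pools of a group are those that were kept.

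Brain microvessels are tubes of endothelial cells with tight junctions, surrounded by pericytes, on arterioles also by smooth muscle cells, and by astrocyte endfeet. Their endothelium is in direct contact with blood, so it responds to circulating hormones, fuels and cytokines. Interferons bind receptors on the cell surface and act through STAT proteins and interferon regulatory factors on genes whose promoters carry the interferon-stimulated response element, among them antiviral enzymes, guanylate binding proteins and the machinery that loads peptides onto MHC class I. The clock runs in endothelial cells too, as a loop in which Clock and Arntl switch on the Period and Cryptochrome genes, whose proteins switch them off again. Glucocorticoids and fasting signals act on fatty acid genes through the glucocorticoid receptor and the PPAR family.

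The unit throughout is the normalized count, the reads of a gene divided by a size factor for the library and rounded by the authors. The value of a pool is the mean of its ipsilateral and contralateral library. The 12 sham libraries summed to between 15924780 and 17926434 normalized counts, and for 9 of them the spacing of low values returned a stable size factor of 0.923 to 1.24, so their raw totals differed from these sums by such factors. Pools of the same time point correlated with r between 0.981 and 0.991 and pools of different time points with r between 0.980 and 0.990 across genes, which are not independent replicates. On the first principal component, which held 36.0% of the variance, the 24 h pools were at -15.2, -14.7 and -23.5 and the 7-day pools at 15.4, 43.6 and -5.69, so the time points did not overlap on it, with pool 3 of 7 days nearest to the 24 h pools. Endothelial markers summed to 377020 to 421237 in all 6 pools and pericyte markers to 112968 to 135706, against 9098.5 to 13931.5 for neuronal and 4325.5 to 7676 for microglial markers, so the endothelial signal of a microvessel preparation was present in every pool. In bulk RNA, fewer cells of a type and less RNA per cell cannot be told apart. Pools 2 and 3 at 7 days stood at opposite ends for inflammatory and glucocorticoid genes, as described below, and counts of genes are therefore also given without a pool where that changes them.

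Among the lists not drawn up after the values of this comparison had been seen, the interferon list had the largest share of called genes. These lists too were chosen with earlier results of these data known. The promoters of the 4 called members of the interferon list with the largest rise are printed here. They are windows of 250 bases before to 50 bases after the RefSeq start site, build GRCm38.p6, 5′ to 3′ on the strand of the gene. Capitals mark matches of the core of the interferon-stimulated response element, which is GAAA, any 2 bases and GAAA again, on either strand, where overlapping matches run together. Gbp3 is shown at chr3:142559794-142560093 on the plus strand, Gbp2 at chr3:142620413-142620712 on the plus strand, Isg15 at chr4:156200769-156201068 on the minus strand and Ifit3 at chr19:34583279-34583578 on the plus strand.
Gbp3: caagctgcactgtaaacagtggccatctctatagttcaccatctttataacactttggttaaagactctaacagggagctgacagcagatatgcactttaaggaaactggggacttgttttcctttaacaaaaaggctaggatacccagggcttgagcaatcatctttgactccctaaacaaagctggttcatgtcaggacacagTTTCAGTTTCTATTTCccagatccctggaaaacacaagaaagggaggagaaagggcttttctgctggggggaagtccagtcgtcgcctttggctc
Gbp2: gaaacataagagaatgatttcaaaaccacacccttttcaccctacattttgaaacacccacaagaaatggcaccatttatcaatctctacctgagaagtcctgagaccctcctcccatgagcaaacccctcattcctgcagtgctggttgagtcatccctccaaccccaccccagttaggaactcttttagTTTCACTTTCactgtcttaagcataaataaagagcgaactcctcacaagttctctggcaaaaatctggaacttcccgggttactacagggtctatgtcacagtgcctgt
Isg15: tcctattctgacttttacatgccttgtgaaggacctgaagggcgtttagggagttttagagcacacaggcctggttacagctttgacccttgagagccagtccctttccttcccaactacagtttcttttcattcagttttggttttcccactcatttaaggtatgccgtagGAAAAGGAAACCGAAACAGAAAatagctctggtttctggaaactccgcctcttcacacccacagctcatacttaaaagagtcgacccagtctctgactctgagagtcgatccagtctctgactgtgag
Ifit3: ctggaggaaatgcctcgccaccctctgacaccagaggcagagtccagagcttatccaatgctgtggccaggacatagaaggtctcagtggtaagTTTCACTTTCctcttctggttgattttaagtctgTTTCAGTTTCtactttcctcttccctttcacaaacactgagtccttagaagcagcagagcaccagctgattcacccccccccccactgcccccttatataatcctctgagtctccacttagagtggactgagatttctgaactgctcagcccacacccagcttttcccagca
The Gbp3 window held 2 overlapping matches, the first of which began 45 bases before the start site, Gbp2 held 1 match 59 bases before it, Isg15 held 3 overlapping matches from 78 bases before it, and Ifit3 held 2 separate matches, 156 and 122 bases before it. This core was searched after the values had been seen. It was in a window of 12 of the 20 interferon-list genes that have one in the RefSeq table (60.0%), in 12 of the 32 with a window among the genes called higher at 7 days (37.5%) and in 0 of the 8 among those called lower, while 3.99% of all 27025 genes with a window, 3.44% of all windows and 3.88% of the 11591 tested genes with a window held it. The STAT palindrome TTCNNNGAA was in windows of 7 of the 32 genes called higher (21.9%) against 9.55% of all genes and 8.25% of genes tested. A match of letters is a description of the sequence and no evidence that a factor bound there.

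The promoter of Ciart, the clock gene with the largest decrease, is printed as the counterpart among the lower genes and was chosen after the values had been seen. It lies at chr3:95882179-95882478 on the minus strand, and capitals mark the E-box CACGTG, the site of the Clock and Arntl pair.
Ciart: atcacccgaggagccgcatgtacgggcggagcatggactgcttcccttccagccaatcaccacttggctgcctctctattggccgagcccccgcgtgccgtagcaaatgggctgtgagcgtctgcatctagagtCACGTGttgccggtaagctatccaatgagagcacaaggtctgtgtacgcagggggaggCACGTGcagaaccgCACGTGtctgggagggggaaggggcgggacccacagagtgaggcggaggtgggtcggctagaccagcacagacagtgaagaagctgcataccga
The window held 3 E-boxes, 116, 58 and 44 bases before the start site. Of the genes called lower at 7 days, 2 of the 8 with a window held an E-box, Ciart and the insulin receptor substrate Irs2, against 8.09% of all genes and 11.3% of genes tested, and 0 of the 32 genes called higher did. In the clock list 5 of 18 genes with a window held it, in Ciart, Bhlhe41, Cry1, Per1 and Tef. The D-box TTATGTAA was in 1 clock gene window, that of Per3, against 1.11% of all genes and 0.716% of genes tested. The inner glucocorticoid receptor palindrome ACANNNTGT was in windows of 4 of 22 glucocorticoid list genes (7.90% of all genes and 5.39% of genes tested), 3 of 32 genes called higher and 0 of 8 called lower. The AP-1 site TGACTCA was in 4 of 32 and 0 of 8 (4.61% of genes tested), the metal response core TGCACNC in 6 of 32 and 0 of 8 (15.4% of genes tested), TGCGCNC in 5 of 32 and 0 of 8 (29.8% of genes tested), and the heat shock element GAANNTTC in 1 of 32 and 0 of 8 (6.96% of genes tested).

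Between 24 h and 7 days after sham surgery, 37 genes rose and 13 fell. The largest rises were those of Olfm5, the red cell genes Slc4a1 and Trim10, the collagen Col14a1 and Alpl, and interferon-inducible and MHC class I genes were also among the genes that rose. The largest decreases were those of Slc25a34, the clock genes Ciart and Per2, and Cpt1b of fatty acid oxidation. A gene was called when limma's moderated test over the 3 pools against 3 gave a Benjamini-Hochberg adjusted p under 0.05 and the change was above 1.5-fold. Of 15982 genes tested 50 passed, 0.313% of all genes, with 0.232% higher and 0.0813% lower. At an unadjusted p under 0.05 there were 2723 genes (17.0%). All 50 called genes had pools that did not overlap, which held for 24.2% of all genes (13% higher and 11.2% lower). All 50 also had 6 against 6 libraries without overlap, which held for 5.78% of all genes (3.20% higher and 2.58% lower). Calling genes on these same pools makes both likely, so they are descriptions and no further support. The calls rest on few pools. With limma's mean-variance trend switched off 0 genes were called (2496 at an unadjusted p under 0.05, smallest adjusted p = 0.0556), without pool 1 or pool 3 of 24 h 0 were called (1789 and 2130 at an unadjusted p under 0.05), and without pool 2 of 24 h 1 rose and 1 fell, whereas without pool 3 of 7 days 95 rose and 98 fell. None of the 50 changed sign under any of these settings.

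**Figure D1:**
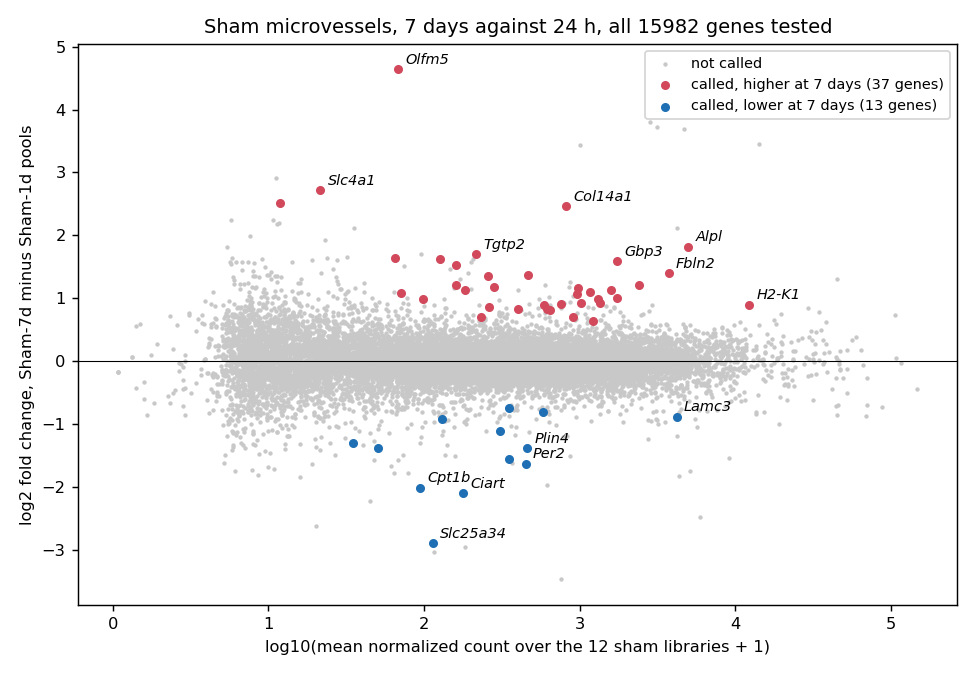
Each point is 1 of the 15982 genes tested, with the mean normalized count over the 12 sham libraries on a log10 scale (x axis) and the log2 fold change of the Sham-7d against the Sham-1d pools (y axis), red for the 37 genes called higher and blue for the 13 called lower. Most genes lie near 0, and grey points far from 0 are genes whose pools spread too widely to pass the test.

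Interferon-stimulated genes were higher at 7 days in nearly the whole list, which was chosen with earlier results of these data known. Of its 31 tested members 10 rose (32.3%, against 0.232% of all genes), 0 fell, 30 had a positive change and 27 had pools apart, higher at 7 days (13% of all genes). The median log2 fold change was 0.82, against -0.0031 for all genes. The summed level of the list was 25382, 29087.5 and 29718.5 in the 24 h pools and 40809.5, 47294.5 and 47843 in the 7-day pools, a ratio of the means of 1.61. The time points did not overlap, and pools 2 and 3 of 7 days, which stood at opposite ends for inflammatory genes, were close to each other here.

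Gbp3 (ENSMUSG00000028268), a guanylate binding protein that acts against microbes inside the cell, was at 930, 723.5 and 957.5 in the 24 h pools and at 2337, 3127 and 2405 in the 7-day pools. Every 7-day pool was above every 24 h pool, and the change was 3.01-fold (log2 fold change 1.59, SE 0.15, adjusted p = 0.0136 by limma). Gbp2 (ENSMUSG00000028270), of the same family, was at 1515, 1242 and 1617 at 24 h and at 3321, 3110.5 and 3649 at 7 days, a log2 fold change of 1.21 (SE 0.12, adjusted p = 0.0136). The 2 genes lie near each other on chromosome 3, at 142560052 to 142573209 for Gbp3 and 142620602 to 142638008 for Gbp2 in mm10.

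Isg15 (ENSMUSG00000035692), a ubiquitin-like protein that is attached to other proteins during an antiviral response, was at 568, 627 and 606.5 at 24 h and at 1229.5, 1563.5 and 1273.5 at 7 days (log2 fold change 1.17, SE 0.11, adjusted p = 0.0136 by limma). Ifit3, which binds other members of the Ifit family that recognise foreign RNA, was at 614.5, 533 and 707.5 against 1075.5, 1483.5 and 1332.5 (log2 fold change 1.06, SE 0.15, adjusted p = 0.0421). For both genes every 7-day pool was above every 24 h pool.

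Among the other called members, Irf7, the transcription factor that amplifies the type I interferon response, rose from 961.5, 1155.5 and 1345.5 to 1987, 2392 and 2561.5 (log2 fold change 1.01, adjusted p = 0.0471). Oasl2 and Oas1a, of the oligoadenylate synthetase family, rose with log2 fold changes of 0.99 and 0.86, the GTPase Igtp with 0.92, the chaperone Rtp4 with 0.91 and the apoptosis factor Xaf1 with 0.82. Zbp1, a sensor of Z-form nucleic acids, had a log2 fold change of 1.51 and Rsad2, the antiviral enzyme viperin, of 1.22, both with pools apart but with adjusted p = 0.0608 and 0.0564. Signalling genes of the list differed less, with log2 fold changes of 0.37 for Stat2, 0.55 for Irf9 and 0.36 for Irf1, pools apart and none called. Ifit2 (0.10), Mx2 (0.10), Ifitm2 (0.06) and Ifitm1 (-0.37) were the 4 members whose pools overlapped.

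The GTPases of the interferon response and the peptide presentation genes were counted in lists drawn up after the values had been seen, and their counts are descriptions. Of 10 tested immunity-related GTPases 6 rose, Tgtp2, Tgtp1, Gm4951, Gm12250, Ifi47 and Igtp (0.232% of all genes rose), and 9 of 10 had pools apart and higher (13% of all genes). Tgtp2 was at 115.5, 91 and 95.5 in the 24 h pools and at 287.5, 381.5 and 326 in the 7-day pools (log2 fold change 1.70, SE 0.14, adjusted p = 0.0136 by limma), and Tgtp1 at 51, 64.5 and 65 against 138.5, 226 and 209.5 (log2 fold change 1.62). Tgtp1 and Tgtp2 are near-identical copies on chromosome 11, and since reads that matched several genes were excluded their separate values are uncertain. The same holds for Ifit3 and Ifit3b. Of 8 tested guanylate binding proteins 3 rose, Gbp3, Gbp2 and Gbp5, and all 8 had a positive change with a median of 1.11. Igtp, Gbp3 and Gbp2 were already counted in the interferon list.

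All 24 tested MHC class I genes and genes of their peptide supply had a positive change, with a median log2 fold change of 0.65, 21 with pools apart and higher (13% of all genes), and 4 of them rose (0.232% of all genes). H2-K1, a classical class I heavy chain, was at 8110, 8294 and 9420.5 at 24 h and at 14495.5, 15796 and 17878.5 at 7 days (log2 fold change 0.90, SE 0.12, adjusted p = 0.0425 by limma). H2-Q6 and H2-Q7, non-classical class I genes that are close copies of each other and therefore uncertain, had log2 fold changes of 1.37 and 1.36. Tap1, which pumps peptides into the endoplasmic reticulum, rose from 646, 718 and 707.5 to 1012.5, 1232.5 and 1139.5 (log2 fold change 0.71, adjusted p = 0.0388). The light chain B2m was at 14160.5, 14131.5 and 16082 against 22154.5, 23859 and 28445, with pools apart but adjusted p = 0.0931. Other interferon-inducible genes that rose were Oasl1 (1.13), Ifit3b (1.17), Apol9b (1.65) and Phf11d (0.69).

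Lists of genes upstream of this response had smaller median changes than the interferon list. They share members with it, among them Irf7 and Zbp1, which had the largest change of the sensors (1.51). Both lists used here were also drawn up after the values had been seen. Of 18 tested interferon receptors and signalling genes 1 rose, Irf7, with a list median of 0.21, and 9 had pools apart and higher (13% of all genes). Of 16 tested sensors of RNA and DNA 0 were called in either direction by limma, with 8 at an unadjusted p under 0.05 and a median of 0.11. Among the sensors 8 had pools apart and higher and 2 apart and lower (13% and 11.2% of all genes). Summed levels did not overlap in either list, at 23327.5 to 23966 against 27698.5 to 29135.5 for receptors and signalling genes. For sensors they were 11510 to 12027 against 12362.5 to 13348. The receptor subunit Ifnar1 was at 3868.5, 3777.5 and 3146.5 at 24 h and at 4709, 3959 and 3800.5 at 7 days, with overlapping pools, and Ifngr1 had a log2 fold change of 0.14.

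Markers of leukocytes stood beside this result as follows. T cell markers summed to 83, 98.5 and 104.5 at 24 h and to 135.5, 138 and 138.5 at 7 days, with 4 of 8 markers (Cd3d, Cd3e, Cd3g and Cd8a) under the expression limit and Trac, the T cell receptor alpha constant gene, at a log2 fold change of 0.92 (adjusted p = 0.135). Neutrophil and monocyte markers summed to 327 to 1089.5 at 24 h and 358 to 1816.5 at 7 days with overlapping pools, and microglial markers to 4953 to 7676 and 4325.5 to 5967. Their part in the interferon result was not tested.

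**Figure D2:**
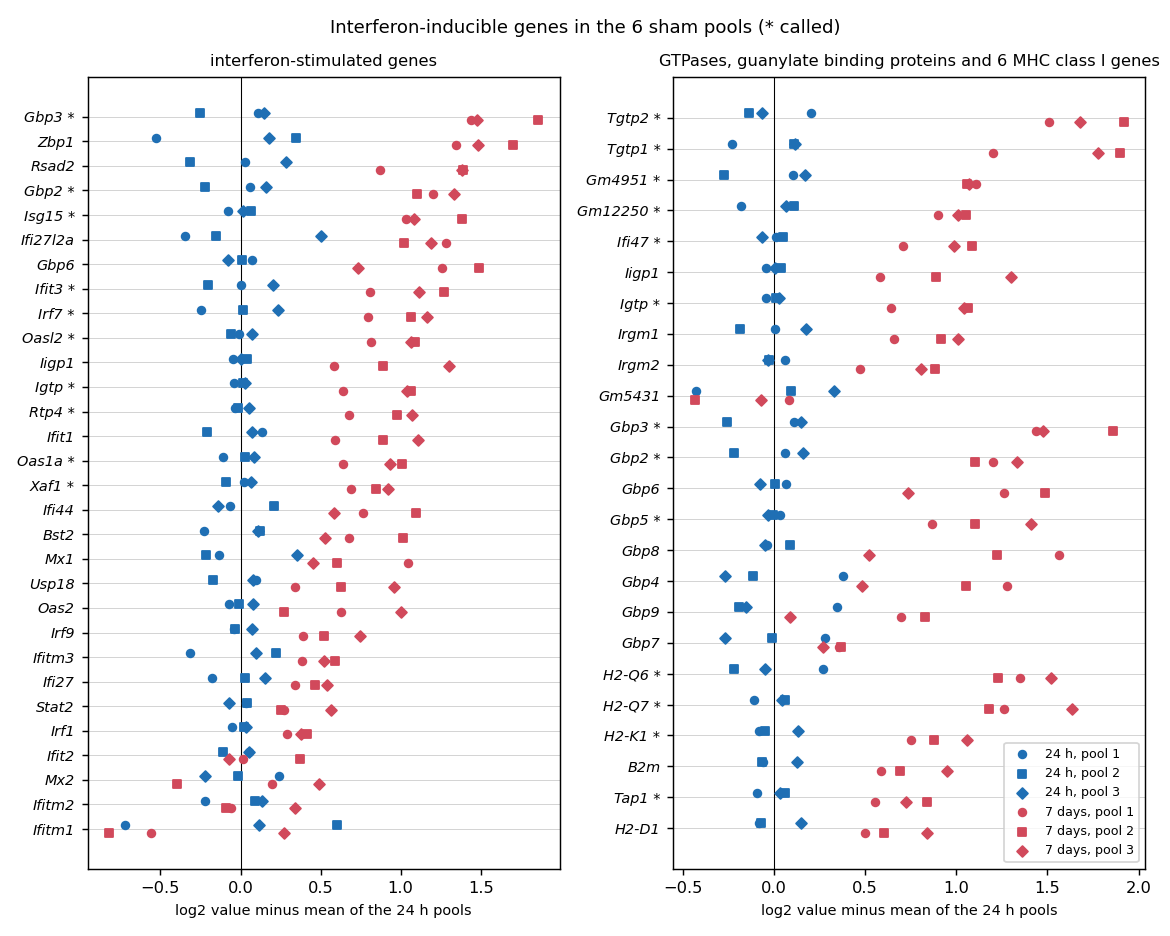
Each row is a gene and each symbol a sham pool, with the log2 value of the pool minus the mean of the 3 pools at 24 h on the x axis, blue for 24 h, red for 7 days, and an asterisk for a called gene. The left panel holds 30 of the 31 tested interferon-stimulated genes, and in all but the lowest 4 every red symbol is to the right of every blue one, and the right panel immunity-related GTPases, guanylate binding proteins and 6 MHC class I genes.

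Several vessel matrix and surface genes were among the largest increases. Olfm5 (ENSMUSG00000044265), an olfactomedin family gene on chromosome 7 at 104153013 to 104164831, was almost silent at 24 h, with 4, 4 and 3 normalized counts, and at 61.5, 209 and 121.5 at 7 days. Its 6 libraries ranged from 2 to 5 at 24 h and from 42 to 249 at 7 days, and the log2 fold change of 4.64 (SE 0.42, adjusted p = 0.0136 by limma) was the largest of the called genes. With such low counts at 24 h its size depends on the value added before the logarithm. Over all alternatives it ranged from 4.21, without pool 2 of 7 days, to 5.10, without pool 1 of 7 days, so these limits come from the spread of the 7-day pools.

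Col14a1, a collagen that binds to the surface of fibrils, was at 305.5, 175 and 300.5 at 24 h and at 1439.5, 1561.5 and 1141.5 at 7 days (5.50-fold, log2 fold change 2.46, SE 0.23, adjusted p = 0.0136 by limma). Alpl, the tissue-nonspecific alkaline phosphatase of brain endothelium, was at 2509, 1639.5 and 2392.5 against 6267, 10892 and 6182.5 (log2 fold change 1.82, SE 0.25, adjusted p = 0.0425). Fbln2, the matrix glycoprotein fibulin-2, was at 2068, 1877 and 2214.5 against 5270, 6237 and 4781.5 (log2 fold change 1.40, SE 0.12, adjusted p = 0.0136). In each of these 3 genes pool 2 was the lowest at 24 h and the highest at 7 days.

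Adamtsl2, which binds microfibrils of the matrix, rose from 95, 97.5 and 89.5 to 203, 276.5 and 194, Egfl8, an EGF-like protein related to endothelial Egfl7, from 725.5, 680.5 and 790.5 to 1452, 1949 and 1354.5, and the integrin ligand nephronectin (Npnt) from 504, 390 and 462.5 to 805, 784 and 746. Sox7, a transcription factor of endothelial cells, had the smallest change of the genes that rose, from 995, 864 and 999 to 1474.5, 1379 and 1573.5 (log2 fold change 0.63, adjusted p = 0.0478 by limma). Matrix genes also fell. The laminin chain Lamc3 went from 5644.5, 5473 and 5205.5 to 3026.5, 3083 and 2738 (log2 fold change -0.88, SE 0.09, adjusted p = 0.0136) and Itgbl1, which resembles an integrin beta chain, from 68, 77 and 73.5 to 26, 25 and 30 (-1.39). In a list of 27 vascular matrix and elastic fibre genes drawn up after the values were seen, 6 rose and 2 fell (0.232% and 0.0813% of all genes) with a median of 0.01 (-0.12 to 0.09 when 1 pool was left out). In the general matrix list of 38 genes 1 was called, Lamc3, 29 of 38 had a negative change and 9 had pools apart and lower (11.2% of all genes), with a median of -0.29 (-0.16 without pool 2 of 7 days). The basement membrane collagens Col4a4 (-1.01) and Col4a3 (-0.99) were among these without being called, while Col4a1 (-0.24) and Hspg2 (0.08) had overlapping pools. Fibroblast and meningeal markers summed to 63931.5 to 87832 at 24 h and 60579.5 to 81620 at 7 days with overlapping pools. Of the 10 tested markers of this list 8 had a negative and 2 a positive change, from -0.36 for Col1a2 to 0.44 for Lum, none was called by limma (1, Lum, at an unadjusted p under 0.05), and their part in the rise of Col14a1 was not tested.

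Red cell transcripts were higher in every 7-day pool. All 7 erythroid markers had pools apart (13% of all genes), with a median log2 fold change of 3.45 (2.4 without pool 1 of 24 h), and their sum was 746, 8524 and 8330 at 24 h against 20389, 50114.5 and 67575.5 at 7 days, a ratio of the means of 7.85. The beta globin Hbb-bs was at 445.5, 5006.5 and 4769 against 10771.5, 27298 and 37100.5 and was not called (adjusted p = 0.158 by limma). Pool 1 of 24 h was the lowest of the 6. Among them only Slc4a1, the anion exchanger of the red cell membrane, was called, at 2.5, 6.5 and 6.5 against 24, 37 and 47 (log2 fold change 2.72, SE 0.37, adjusted p = 0.0388). Trim10, a ubiquitin ligase of maturing red cells, rose from 2.5, 3 and 2 to 12, 19 and 27. Its mean over the sham libraries was 10.9, and it is named because it was called. The globin genes Hba-a1 and Hba-a2, and Hbb-bs and Hbb-bt, are near-identical pairs, and their separate values are uncertain. How much blood remained in the vessels after perfusion was not measured here, and its part in the other results was not tested.

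Genes of mitochondria and of lipid storage were among those that fell, and Slc25a34 had the largest decrease of the called genes. Slc25a34 (ENSMUSG00000040740), a carrier of the mitochondrial inner membrane, was at 210.5, 196 and 191.5 in the 24 h pools and at 31.5, 18 and 31 in the 7-day pools, 7.45-fold higher at 24 h (log2 fold change -2.90, SE 0.22, adjusted p = 0.0136 by limma). Cpt1b, the muscle form of the enzyme that commits long-chain fatty acids to oxidation, was at 147.5, 146 and 155 against 46, 27.5 and 38.5, 4.04-fold higher at 24 h (log2 fold change -2.01, SE 0.19, adjusted p = 0.0136). Plin4, a coat protein of lipid droplets, was at 708.5, 572.5 and 702.5 against 334, 191.5 and 250 (log2 fold change -1.38, SE 0.20, adjusted p = 0.0471). In all 3 genes pool 2 was the lowest of the 7-day pools.

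Of 33 tested genes of fatty acid oxidation and PPAR targets, a list drawn up after the values were seen, these 3 fell, 29 had a negative change and 14 had pools apart and lower (11.2% of all genes), with a median of -0.30. The median was -0.47 without pool 3 of 7 days, where 10 members were called, and -0.18 without pool 1 of 7 days. Pdk4, which holds back glucose oxidation, was at 1038, 931.5 and 1377 against 495, 258.5 and 857.5 (adjusted p = 0.201), with pool 3 of 7 days close to the 24 h pools. Angptl4, a secreted lipase inhibitor, was at 4813.5, 3928.5 and 8847.5 against 965.5, 571.5 and 6973.5, where pools 1 and 2 of 7 days lay below every 24 h pool and pool 3 among them. Irs2, an adaptor of the insulin receptor, fell from 424, 447.5 and 445 to 257, 262 and 272.5 (log2 fold change -0.75, SE 0.08, adjusted p = 0.0174 by limma), with all pools of a time point close together. Tusc5, a regulator of glucose transporter traffic in fat cells, fell from 187.5, 164.5 and 158 to 94.5, 89.5 and 83.5. In a list of 22 genes of insulin and FOXO signalling, also drawn up after the values were seen, Irs2 alone was called, 17 of 22 had a negative change and the median was -0.20 (-0.36 without pool 3 of 7 days and -0.12 without pool 3 of 24 h or pool 1 of 7 days).

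Most clock genes had lower values at 7 days. Of 22 genes of the list 2 fell, Ciart and Per2 (9.09%, against 0.0813% of all genes), 13 had pools apart and lower (11.2% of all genes) and 2 pools apart and higher, where 13% of all genes did. Ciart, a repressor of the Clock and Arntl pair, was at 314, 193.5 and 360 at 24 h and at 55.5, 72 and 68.5 at 7 days, 4.30-fold higher at 24 h (log2 fold change -2.10, SE 0.24, adjusted p = 0.0225 by limma). The Period gene Per2 was at 760, 564 and 714.5 against 181.5, 208 and 274.5, 3.10-fold higher at 24 h (log2 fold change -1.63, SE 0.18, adjusted p = 0.0193). Every 24 h pool was above every 7-day pool in both.

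Arntl, the partner of Clock, stood on the other side, at 482, 465.5 and 566 at 24 h and at 1288, 728.5 and 1560.5 at 7 days (log2 fold change 1.18, SE 0.26, adjusted p = 0.116), and so did Npas2, which can replace Clock, at 103.5, 96 and 93.5 against 216.5, 155 and 160 (0.84, adjusted p = 0.0860). Per3 (-0.97), the output factors Dbp (-0.96), Tef (-0.59) and Hlf (-0.53) and the nuclear receptors Nr1d2 (-0.77) and Nr1d1 (-0.42) had pools apart and lower without being called, Nr1d2 with adjusted p = 0.0529. Clock itself was at 1659, 1360.5 and 1283.5 against 1453, 1310 and 1207, with overlapping pools. The list median was -0.39. The hour of collection cannot be told apart from the day after surgery here.

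**Figure D3:**
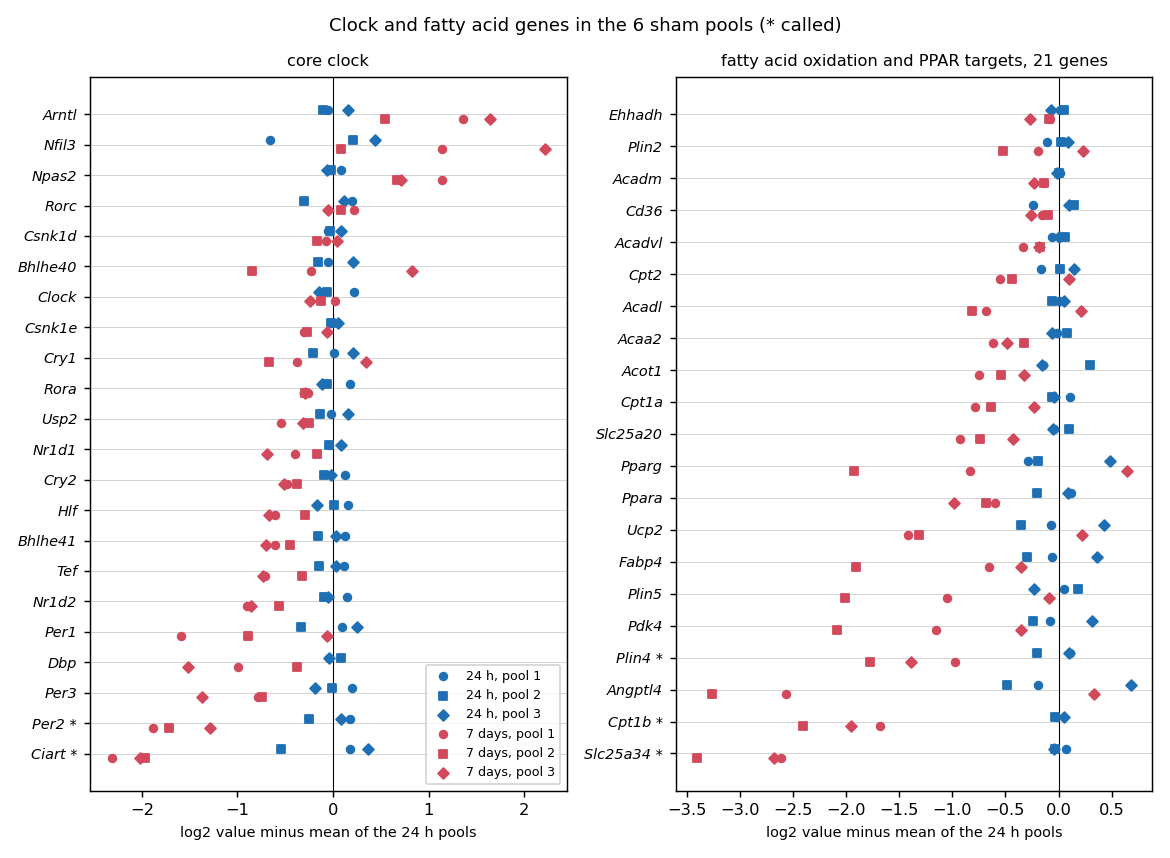
Each row is a gene and each symbol a sham pool, with the log2 value of the pool minus the mean of the 3 pools at 24 h on the x axis, blue for 24 h, red for 7 days, and an asterisk for a called gene. The left panel holds the 22 clock genes, with Arntl and Npas2 higher and Per2 and Ciart lower in every 7-day pool, and the right panel 21 of the 33 fatty acid genes, from the lower end of the list, where pool 3 of 7 days (diamond) often lies near the 24 h pools.

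Of the 26 genes of the glucocorticoid response 22 had a negative change, with a median log2 fold change of -0.56. Plin4, Pdk4 and Angptl4 are also in the fatty acid list and Per1 in the clock list, so these lists are not separate results. Without pool 3 of 7 days the median was -0.98, and without pool 1 or pool 2 of 7 days it was -0.31. In 1 member, Plin4, the decrease passed the test, and 6 members including Plin4 had pools apart and lower (11.2% of all genes). Hif3a was at 581, 342.5 and 729 at 24 h and at 153.5, 130.5 and 248 at 7 days (log2 fold change -1.63, adjusted p = 0.0969), Klf15, a transcription factor induced by glucocorticoids, at 617.5, 501 and 822 against 279, 250.5 and 348 (-1.13, adjusted p = 0.0739), and Arrdc2 at 503.5, 436.5 and 627.5 against 232.5, 224 and 294.5 (-1.05, adjusted p = 0.0545). In these 3 genes pool 3 was the highest at both time points.

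The most used glucocorticoid markers did not separate the time points. Fkbp5, a co-chaperone of the glucocorticoid receptor, was at 2757, 1616 and 5199.5 at 24 h and at 1054, 505.5 and 6035.5 at 7 days, and the metallothionein Mt2 at 1853, 1280 and 6340.5 against 2769, 969.5 and 17679. Pool 3 of 7 days was the highest and pool 2 of 7 days the lowest of all 6 pools in both. Without pool 3 of 7 days 9 members of the list were called.

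Acute phase genes showed the same spread. Of 27 tested members of the acute phase list and of 22 of the NF-kappaB and adhesion list 0 were called by limma (2 in each list at an unadjusted p under 0.05), with medians of -0.55 and -0.21. Neither median kept its direction when pool 2 of 7 days was left out, with 0.0062 and 0.33, while without pool 3 of 7 days they were -0.90 and -0.54. The NF-kappaB median was also 0.13 without pool 3 of 24 h, and 0.20 in the ipsilateral against -0.39 in the contralateral libraries. Lcn2, a secreted iron carrier of the acute phase, was at 4672, 5786.5 and 7695.5 at 24 h and at 5021, 528 and 15828 at 7 days. Serpina3n, a protease inhibitor of the acute phase, was at 5306, 8970 and 7614.5 against 4074, 56 and 9450.5, and Selp, the adhesion molecule P-selectin, at 53, 219.5 and 120.5 against 234, 6 and 398. Pool 2 of 7 days was thus the lowest and pool 3 of 7 days the highest pool for all 3 genes, and the 24 h pools lay between them. The member with the smallest p in the acute phase list was Cp, the plasma copper carrier ceruloplasmin, at 23199.5, 25249 and 21494.5 against 15831.5, 16320.5 and 14827 (log2 fold change -0.57, adjusted p = 0.113).

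**Figure D4:**
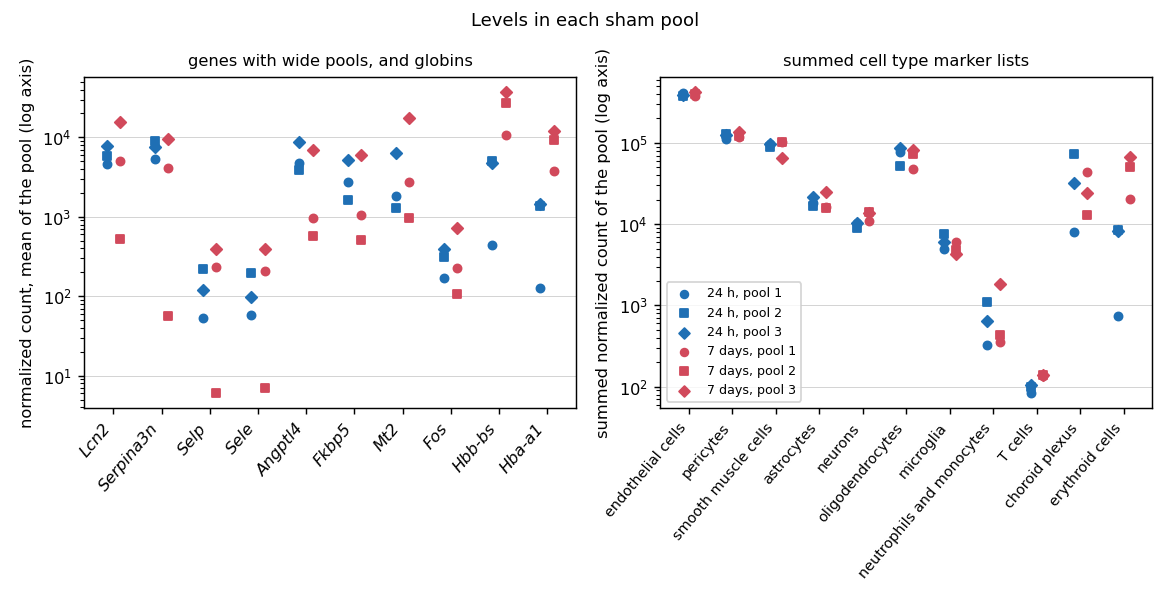
Normalized counts of 10 genes (left) and summed marker lists of 11 cell types (right) in each sham pool on log axes, blue for 24 h, red for 7 days, with circles for pool 1, squares for pool 2 and diamonds for pool 3. Pool 2 of 7 days is the lowest for Lcn2, Serpina3n, Selp and Sele and pool 3 of 7 days the highest, and the globins and the erythroid list are higher in every 7-day pool.

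In the lists of 18 junction and 24 transport genes 0 were called by limma (3 and 6 at an unadjusted p under 0.05), with medians of 0.01 and -0.20. The tight junction gene Cldn5 was at 49372.5, 52717.5 and 46188 at 24 h and at 64554, 67933.5 and 55592 at 7 days (log2 fold change 0.34, SE 0.18, adjusted p = 0.380). The organic anion transporter Slco1a4 was at 61836.5, 58443 and 44717.5 against 31967, 41314 and 28458 (log2 fold change -0.71, adjusted p = 0.185), and the transferrin receptor Tfrc had a change of -1.04 with overlapping pools. Abcb1b, which together with Abcb1a encodes the efflux pump P-glycoprotein in the mouse and was not in the transport list, fell from 411, 421 and 415.5 to 243, 163 and 177.5 (log2 fold change -1.11, SE 0.15, adjusted p = 0.0383), while Abcb1a was at 36500, 31460.5 and 31675 against 29508.5, 26870 and 29272 (-0.22, adjusted p = 0.476). The remaining genes that fell were Gpx3, a secreted glutathione peroxidase (-1.56), Fam46b (-1.31) and Adap2, which switches off Arf GTPases (-0.81). The remaining genes that rose were Wfdc17 (1.53), Psd, an exchange factor for Arf proteins (0.90), and Leo1, a subunit of a complex that travels with RNA polymerase (0.83).

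Large groups of housekeeping genes had small changes of mostly 1 sign, and none of their members was called. All 77 cytosolic ribosomal protein genes had a positive change, with a median log2 fold change of 0.34 and 54 with pools apart and higher (13% of all genes), and 71 of 75 nuclear-encoded oxidative phosphorylation genes had one too, with a median of 0.28. Neither list, both drawn up after the values were seen, held a called gene by limma, with 63 of 77 and 50 of 75 at an unadjusted p under 0.05 (17.0% of all genes). Genes encoded in the mitochondrion had a median of 0.04. Of 22 genes of cholesterol synthesis and uptake 19 had a positive change, with a median of 0.33 and 12 at an unadjusted p under 0.05. Msmo1, an enzyme of this pathway, was at 538, 576 and 611 at 24 h and at 819, 892.5 and 863 at 7 days (log2 fold change 0.57, adjusted p = 0.0471), under the limit on the fold change.

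The remaining lists held no called gene other than Gpx3. They were immediate early genes (median -0.10, -0.51 without pool 3 and 0.16 without pool 2 of 7 days, 5 of 27 at an unadjusted p under 0.05), chaperones (0.18, 7 of 23), oxidative stress (0.05, 5 of 23), proliferation (0.11, 0 of 26), angiogenesis (0.08, 5 of 24), hypoxia and glycolysis (0.08, 3 of 26) and the unfolded protein response (-0.04, 7 of 27). Within the immediate early list, Arc, a gene of active neurons, was at 56.5, 93.5 and 143.5 at 24 h and at 163.5, 225.5 and 543.5 at 7 days (log2 fold change 1.62, adjusted p = 0.134), while Fos was at 169.5, 310.5 and 389 against 229, 107.5 and 727.5. Neuronal markers summed to 9098.5 to 10371 at 24 h and 11034.5 to 13931.5 at 7 days without overlap, and their part in the values of Arc was not tested. Among cell type markers, Cd163 of perivascular macrophages was at 708.5, 891.5 and 909 against 447, 319 and 533.5 (-0.97, adjusted p = 0.0985). Choroid plexus markers summed to 7946.5 to 73504 at 24 h and 12964.5 to 43800 at 7 days, and ependymal markers to 1063 to 1523.5 and 1072 to 1395, so pools of the same time point differed in them by more than the time points did. Median log2 fold changes were -0.19 for smooth muscle, -0.07 for astrocyte, -0.11 for oligodendrocyte, -0.25 for pericyte and 0.04 for endothelial markers, and none of these lists held a called gene by limma (1, 2, 1, 1 and 4 members at an unadjusted p under 0.05).

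The time effect was compared between the hemispheres, since the operation was on the right side. No gene passed the test of the within-pool difference of ipsilateral and contralateral libraries between the time points by limma (402 at an unadjusted p under 0.05, smallest adjusted p = 0.276). Of the 50 called genes 7 had an unadjusted p under 0.05 in this test, against 402 of all 15982. They were Fbln2, Egfl8, Alpl, H2-Q6, Psd, Npnt and Slc25a34, each with the larger change ipsilaterally. All 50 called genes had the same sign in both hemispheres, which the choice of the genes from both makes likely. Gbp3 had log2 fold changes of 1.62 ipsilaterally and 1.56 contralaterally, Olfm5 of 4.50 and 4.77, and Per2 of -1.56 and -1.70. Fbln2 had 1.59 and 1.20, the difference with the smallest unadjusted p among the genes described above (5.1e-04).

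The contralateral hemispheres of tMCAO mice are 6 libraries of other animals, 3 at each time point. They entered the filter on the mean count, but their change with time was not used to choose these genes. Of the 37 genes that rose in sham pools 36 had a positive change from 24 h to 7 days there, with Trim10 as the exception, and of the 13 that fell 11 had a negative change, with Plin4 (0.00) and Irs2 (0.15) as the exceptions. Over all genes 50.1% had a positive change. The changes were smaller, with a median log2 fold change of 0.49 for the genes that rose (1.13 in sham pools, 1.04 in the sham contralateral libraries) and -0.42 for those that fell (-1.38 and -1.40). The genes were chosen for large changes in the sham pools, which include the sham contralateral libraries. That choice alone makes larger sham medians likely, so the difference in size is a description only. Across all genes 1 was called between 24 h and 7 days in these libraries (0.00626%).

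Olfm5 was at 2, 4 and 9 in the contralateral tMCAO libraries at 24 h and at 14, 66 and 9 at 7 days (log2 fold change 2.02), Col14a1 had a log2 fold change of 1.77, Slc25a34 of -1.73 and Ciart of -1.27. The interferon list had a median of 0.33 with 25 of 31 members positive, the clock list of -0.17, the ribosomal protein genes of 0.25 with 77 of 77 positive, the erythroid list of 0.46 and the glucocorticoid list of 0.04. In those libraries neuronal markers had a median of 0.996 and choroid plexus markers of -1.05, and their part in these values was not tested.

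No gene passed the test of the difference between the time effects of sham and contralateral tMCAO libraries by limma (733 at an unadjusted p under 0.05, smallest adjusted p = 0.578). Of the 50 called genes 24 had an unadjusted p under 0.05 for it, a description only, since the sham libraries that chose these genes also enter the difference. Among them were Plin4 (-1.43 in sham against 0.00 in tMCAO contralateral libraries) and Per2 (-1.70 against -0.52), each with adjusted p = 0.617.

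**Figure D5:**
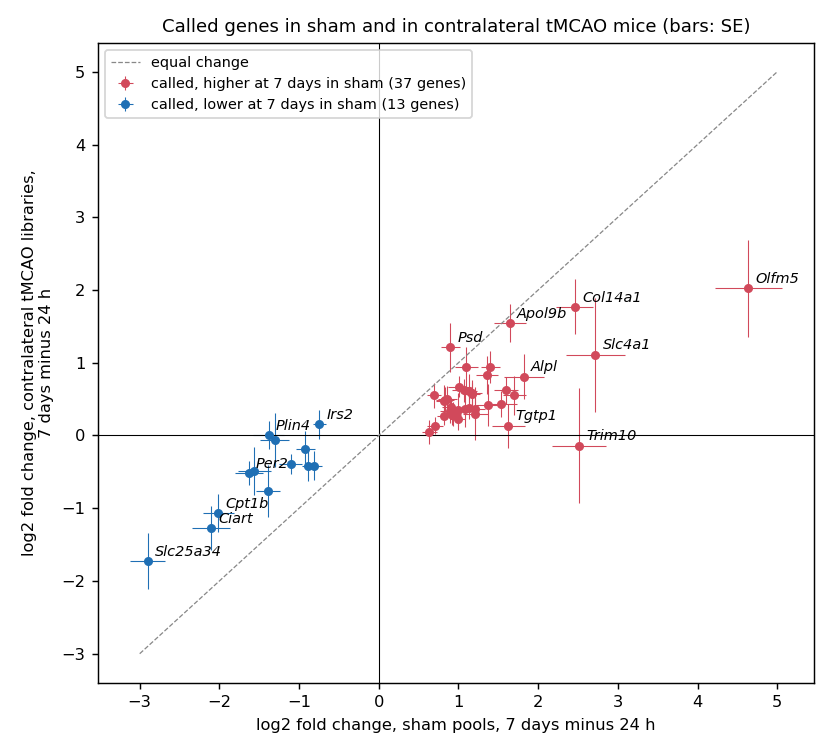
Each point is 1 of the 50 called genes, with its log2 fold change from 24 h to 7 days in sham pools on the x axis and in the contralateral libraries of tMCAO mice on the y axis, bars for the standard errors and a dashed line for equal change. Of the 37 red genes 36 lie above 0 on the y axis and of the 13 blue genes 11 below 0, mostly nearer to 0 than in sham pools. The choice of the genes in sham pools makes the smaller size likely.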

How the data were processed

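RNA from brain microvessels of sham-operated and tMCAO mice was sequenced in 24 libraries (TruSeq Stranded mRNA, NextSeq 500). After trimming, the authors used STAR for alignment to mm10, left out reads shared by several genes, and scaled the libraries with DESeq2. The submitters' processing notes list STAR 2.5.2b, featureCounts 1.5.1 and DESeq2 1.6.2, which differ from versions in the study's methods, and the strand setting of the counting is not given in the sources used here. The deposited values are treated as a score: counts that the authors divided by a size factor and rounded to whole numbers. They are not raw counts, so no count model was run.

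The 12 sham libraries were used as log2 of the value plus 1, and same-numbered hemispheres of a time point were averaged to 6 pools, a pairing that rests on the label numbers. Whether replicates were prepared on the same day is not given, so p-values measure only the spread between these pools. Genes with a mean above 5 over the 24 libraries (15982 of 17270) were fitted with limma 3.58.1 with a mean-variance trend in R 4.3.3. The Benjamini-Hochberg adjustment covered every gene fitted, and a called gene had an adjusted p under 0.05 and a change above 1.5-fold. A fold change is on the log2(value + 1) scale and understates the change of low genes. The difference between hemispheres (within-pool differences) and between sham and contralateral tMCAO libraries (interaction over 12 libraries) were fitted the same way. With 3 pools a side the smallest exact permutation p is 0.1, so none is given for single values.

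Members and lists were chosen with earlier results of these data known. Lists described as drawn up after the values were seen carry no test. The genes named are the 12 largest increases and the 12 largest decreases among called genes with pools apart and a mean above 20 over the sham libraries, up to 4 called members per direction of each list or else its member with the smallest p, and further called genes and list members, which were chosen after their values were seen. The fits were tested on simulated data. Alternatives were another added value, other filters, median centring, a replicate block, no trend, a robust prior, no fold limit, libraries with the pool as random effect, single hemispheres and leaving out each pool. Size factors were estimated from gaps and doublings in the rounded values up to 150 and up to 400 and kept where both were the same within 0.005. Promoter windows and start sites are from RefSeq (GRCm38.p6), and coordinates of genes are those of the deposited file (mm10). Python 3.11.15 with numpy 2.4.6, pandas 2.3.3 and matplotlib 3.10.9 was used for motifs and figures. No 2 libraries held identical values. Some genes of the lists are counted in them but not reported singly here.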

Additional observations from a re-analysis of the deposited data

Results flagged for a closer look

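Icam1, the adhesion molecule that leukocytes bind on endothelium, had opposite time effects in the contralateral libraries of the 2 surgeries. In sham mice it was at 1806, 2119 and 1882 at 24 h and at 1199, 1087 and 1129 at 7 days, and in tMCAO mice at 1804, 2364 and 1518 at 24 h and at 2625, 2726 and 2495 at 7 days, without overlap in either. The sham effect minus the tMCAO effect was -1.25 on the log2 scale (adjusted p = 0.578 by limma over all genes), so it did not pass the correction. That adjusted p was the smallest of all genes, so Icam1 is the extreme of a comparison in which no gene passed. In the ipsilateral libraries its log2 fold change was -0.39 in sham and -0.19 in tMCAO mice. In the sham pools of both hemispheres Icam1 had a log2 fold change of -0.58 (adjusted p = 0.116) and was not called.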

How the results depend on the processing

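No called gene changed sign under any of the 19 alternatives, but the number of calls depended on the setting. Against 37 genes higher and 13 lower, 18 and 8 were called with no filter on low values, 0 and 0 without the mean-variance trend, 119 and 83 with the 12 libraries and 120 and 93 with the 24 libraries fitted with the pool as random effect, 22 and 6 in the ipsilateral and 17 and 11 in the contralateral libraries alone. The other added value, filters, centring, robust prior and fold limit kept both counts within 1.5 times. Leaving out 1 pool gave 0 to 95 higher and 0 to 98 lower genes. These were 0 and 0 without pool 1 of 24 h, 1 and 1 without pool 2, 0 and 0 without pool 3, 22 and 10 without pool 1 of 7 days, 10 and 3 without pool 2, and 95 and 98 without pool 3, where all 50 calls were kept. The cause was not tested. Called members of the interferon list numbered 0 to 14 of 31 when 1 pool was left out, while its median stayed between 0.80 and 0.88. Olfm5, Gbp3 and Gbp2 were among the genes kept in 15 of 19 alternatives. The tests between hemispheres and between surgeries gave 0 genes under every alternative run.

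A replicate block, which pairs pools by number, gave 66 genes higher at 7 days and 34 lower, and 46 of the 50 calls were kept. Same-numbered pools of the time points deviated together with r = 0.064, 0.017 and 0.403. The hemispheres of a pool gave r between 0.145 and 0.467, so the value of pool 3 lay within their range. Whether the pools of number 3 share more than a number was not tested. Pairing the pools by number was not used in the main fit.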
